A study of Rattus norvegicus with 26 samples.

Results

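Counted here are 10 features of a stretch of rat chromosome 15 that is taken by its position as part of the granzyme and mast-cell protease cluster. The stretch runs from 34601037 to 35113678 in the deposited coordinates, of a genome build that the sources used here do not give. It holds 11 of the 32552 counted features, and the 10 with the highest raw counts summed over the 26 libraries were kept. The members were thus chosen by counts measured in these libraries. The stretch itself had been selected on a run of neighbouring features with higher counts in fetal than in adult cells, so that difference and the summed counts are given below as description, without a test. Just inside the choice by summed count was ENSRNOG00000050460 with 163 counts, and just outside it ENSRNOG00000031304 with 147.

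The study asked how far fetal liver cells keep their expression after transplantation into adult rat liver. Before transplantation, RNA was taken from cell pellets of adult hepatocytes (n = 4) and of 3 immunopurified fetal hepatocyte sorts named LAP+, LAP+/OC2+ and LAP+/OC2- (n = 4 each). After it, colonies derived from fetal cells and the adult host tissue around them were laser-captured from the livers of 5 animals (numbers 242, 243, 246, 248 and 249). The labels do not spell out LAP or OC2, and they give no strain, age, time after transplantation, litter or pooling, nor how regions were chosen for capture. Replicates are called biological in the labels, which do not say whether they came from separate litters, so p-values measure the spread between these libraries. The stages before and after used different library kits and starting material, and no level was compared across them.

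Granzymes are serine proteases of the granules of cytotoxic lymphocytes and natural killer cells, where they cleave proteins of target cells after perforin lets them in. Mast-cell proteases, the chymases among them, are closely related enzymes stored in mast cell and basophil granules and released when those cells are activated. Rodents carry many such genes side by side in a cluster, and the fetal liver is a site of blood formation as well as of hepatocyte growth.

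The files do not pair identifiers with names, and the RefSeq table used here (assembly GRCr8) matched 0 of the 10 identifiers, so no feature is given a gene name or role, and the results follow the order of levels and positions. On RefSeq chromosome 15, 26 genes carry symbols beginning Mcpt (12) or Gzm (12) or are Cma1 and Ctsg, running from Cma1 at the proximal end to Gzmb. The span from first to last base was the same as that of a RefSeq chromosome 15 gene for 3 of the 10 features, against 332 of all 1103 counted on that chromosome. These were ENSRNOG00000020563 (2783 nt, the span of Cma1), ENSRNOG00000053494 (2657 nt, the span of Mcpt1l1) and ENSRNOG00000050460 (2272 nt, the span of LOC134481971). An equal span is a property shared with a gene of another assembly, not an annotation. Exactly 5 exon blocks, the layout of 5 of the 10, were counted for ENSRNOG00000020563, ENSRNOG00000053494, ENSRNOG00000049096, ENSRNOG00000060405 and ENSRNOG00000020647.

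Along the chromosome, ENSRNOG00000020563 (34601037 to 34603819), ENSRNOG00000053494 (34609776 to 34612432), ENSRNOG00000049096 (34622123 to 34625121), ENSRNOG00000060405 (34634122 to 34636197) and ENSRNOG00000049991 (34644464 to 34694244) follow each other on the minus strand. Then come ENSRNOG00000024785 (34751550 to 34796223) and ENSRNOG00000020625 (34862266 to 35034622) on the plus strand. ENSRNOG00000050460 (34895966 to 34898237, minus strand) and ENSRNOG00000031792 (35001838 to 35020760, plus strand) lie inside the bounds of ENSRNOG00000020625. The last, ENSRNOG00000020647 (35111091 to 35113678, minus strand), starts 90330 nt beyond ENSRNOG00000031792. No exon base is shared between any of them and another counted feature, but genes of one family can share sequence and the counting rule for reads that match several places is not given, so whether reads were split between them was not tested.

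Total counts per library ran from 7871347 to 16874438, so that a count of 0 allows up to 0.178 to 0.381 counts per 1000000 counted (CPM), counting error only. CPM below are on library sizes scaled by the trimmed mean of M-values (TMM). Mitochondrial features took 62.2% ± 17.9 (SD, n = 4) of the counts in LAP+/OC2+ libraries, against means of 4.94% to 7.73% in the other groups before transplantation. That left 1917734 to 5045098 nuclear counts per LAP+/OC2+ library, and at least 13084505 in each library of the other 3 groups. These libraries are of bulk RNA, and fewer cells of a type and less RNA per cell cannot be told apart in them.

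In adult hepatocytes the cluster was close to silent, and in each fetal sort a different feature stood highest. Summed over the 10 features, the level was 1.38 ± 1.00 CPM for adult cells, 147 ± 67.6 for LAP+, 211 ± 48.9 for LAP+/OC2+ and 33.9 ± 12.2 for LAP+/OC2- (SD, n = 4 each). Each of the 10 features had between 0 and 12 counts in every adult library. Every fetal library lay above every adult library for 6 of the 9 features that could be tested, against 17.6% of all 13818 features tested, a difference the choice of the stretch had used. The order of LAP+ and LAP+/OC2+ in the summed level turns with the scaling: without TMM the sums were 188 ± 78.0 CPM in LAP+ and 138 ± 44.6 in LAP+/OC2+ cells.

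Per kilobase of exon, which allows features to be compared, ENSRNOG00000049096 led in LAP+ cells with 71.7 ± 37.7 CPM per kb. The next 3 there, ENSRNOG00000053494 at 16.9 ± 7.74, ENSRNOG00000031792 at 15.3 ± 8.28 and ENSRNOG00000020563 at 14.9 ± 5.49 CPM per kb, did not differ among themselves beyond their spread. In LAP+/OC2+ cells ENSRNOG00000020647 led with 109 ± 34.6 CPM per kb, above ENSRNOG00000049096 at 33.1 ± 5.26 and ENSRNOG00000020563 at 31.0 ± 12.1, which overlapped. In LAP+/OC2- cells ENSRNOG00000053494 led with 17.2 ± 7.18 CPM per kb, followed by ENSRNOG00000020563 at 6.42 ± 2.88 and ENSRNOG00000020647 at 3.39 ± 2.23. The leading feature accounted for 43.4% of the LAP+ sum, 51.6% of the LAP+/OC2+ sum and 52.4% of the LAP+/OC2- sum.

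**Figure D1:**
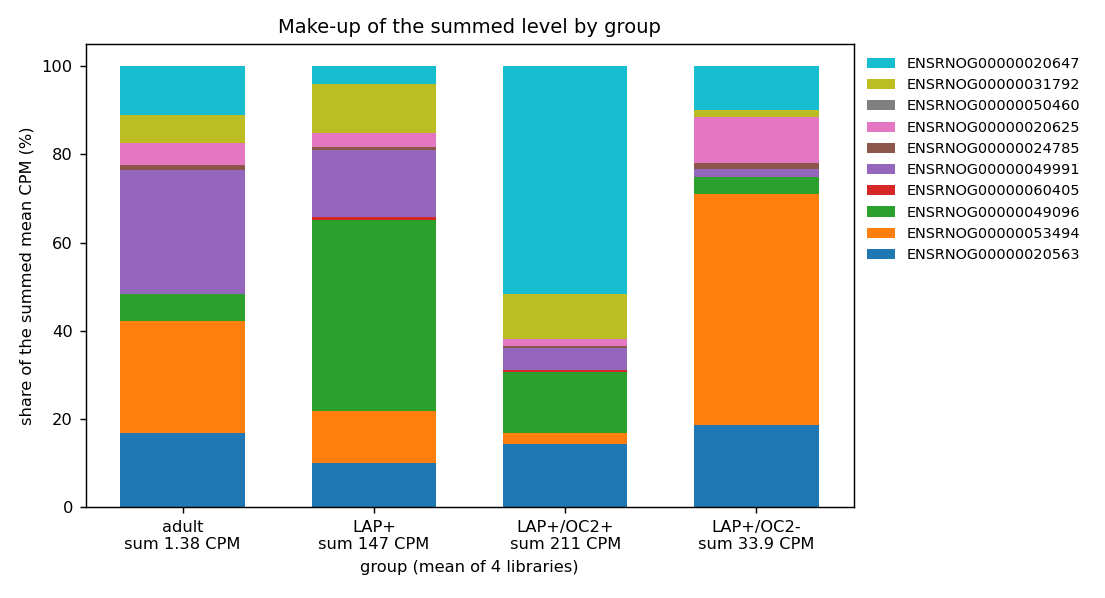
Each bar divides the summed mean CPM of the 10 features in a group before transplantation (mean of 4 libraries, sum given under the bar) into the share of each feature, in percent. ENSRNOG00000049096 takes 43.4% of the LAP+ bar, ENSRNOG00000020647 takes 51.6% of the LAP+/OC2+ bar and ENSRNOG00000053494 takes 52.4% of the LAP+/OC2- bar.

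The leading feature of LAP+/OC2+ cells, ENSRNOG00000020647, had 153, 81.2, 121 and 81.4 CPM in the 4 LAP+/OC2+ libraries. In LAP+ libraries 1 to 4 it had 2.00, 0.838, 1.80 and 19.6 CPM. In LAP+/OC2- libraries 1, 3, 4 and 5 it had 1.74, 2.44, 2.76 and 6.72 CPM. The lowest LAP+/OC2+ library thus lay above the highest library of either other sort, and only LAP+ library 4 stood away from the low values of its group.

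The leading feature of LAP+ cells, ENSRNOG00000049096, had 109, 28.9, 57.3 and 59.1 CPM in LAP+ libraries 1 to 4. LAP+/OC2+ libraries had 29.7, 26.3, 35.9 and 25.7 CPM. LAP+/OC2- libraries had 1.45, 0.783, 1.74 and 1.33 CPM. All LAP+/OC2- libraries were therefore below all others, while LAP+ and LAP+/OC2+ overlapped at LAP+ library 2.

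ENSRNOG00000053494, which ends 9690 nt before ENSRNOG00000049096 begins, had a different order. It had 27.3, 8.03, 18.8 and 15.6 CPM in LAP+ libraries 1 to 4 and 7.27, 20.9, 24.4 and 18.6 CPM in LAP+/OC2- libraries 1, 3, 4 and 5. In LAP+/OC2+ libraries 1 to 4 it had 14.4, 1.19, 4.89 and 0.345 CPM. LAP+ and LAP+/OC2- overlapped over nearly their whole range, and LAP+/OC2+ was lower apart from its library 1.

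**Figure D2:**
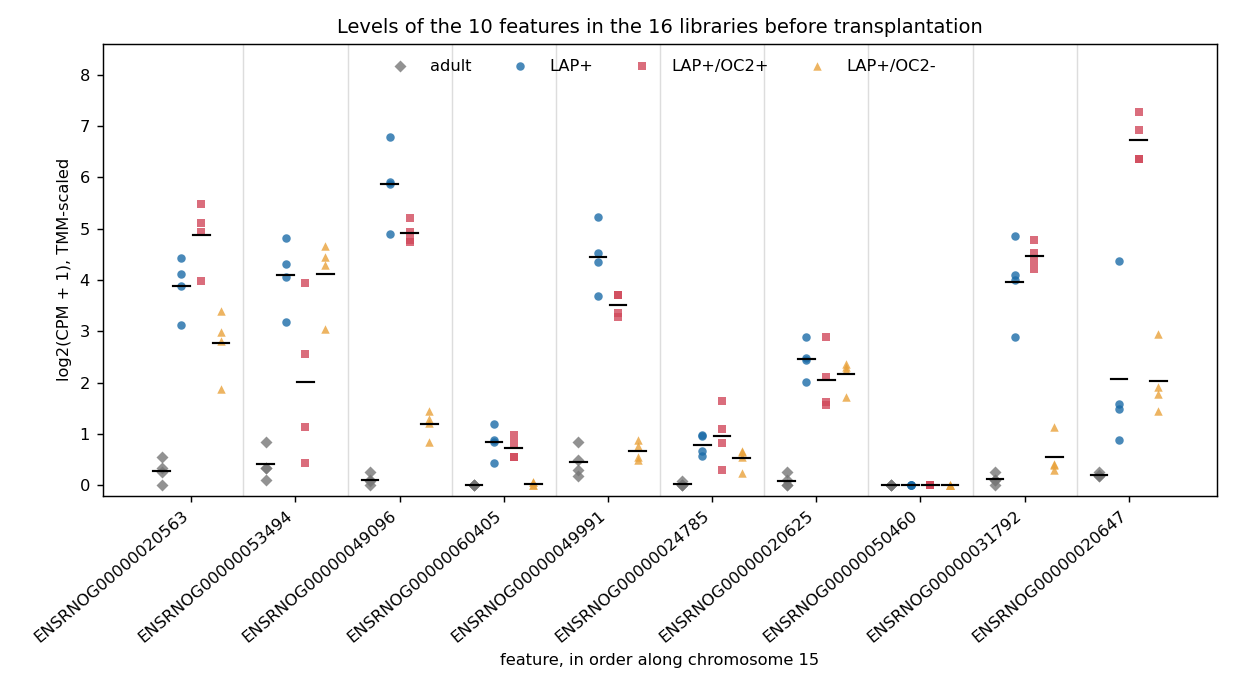
Log2(CPM + 1) of each feature in each of the 16 libraries before transplantation, with a symbol for each library by group and a black line at the mean of each group on this scale. ENSRNOG00000020647 is high in the 4 LAP+/OC2+ libraries (81.2 to 153 CPM), ENSRNOG00000049096 is low in the 4 LAP+/OC2- libraries (0.783 to 1.74 CPM), and ENSRNOG00000050460 has no count in any of the 16.

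Of the other features, ENSRNOG00000049991 and ENSRNOG00000031792 resembled ENSRNOG00000049096 in being low in LAP+/OC2- cells. ENSRNOG00000031792 had 27.9, 6.40, 15.1 and 16.03 CPM among LAP+ libraries, 19.6, 22.1, 26.6 and 17.5 among LAP+/OC2+ and 0.328, 0.322, 0.225 and 1.19 among LAP+/OC2-. ENSRNOG00000049991 had 36.6, 11.9, 21.9 and 19.5 CPM among LAP+ libraries, 8.77, 9.26, 12.1 and 12.1 among LAP+/OC2+ and 0.469, 0.415, 0.843 and 0.692 among LAP+/OC2-. For both, no LAP+/OC2- library reached any library of the other sorts. ENSRNOG00000020563 averaged 14.6 ± 5.39 CPM among LAP+ libraries, 30.4 ± 11.9 among LAP+/OC2+ and 6.29 ± 2.82 among LAP+/OC2-, with neighbouring groups overlapping. ENSRNOG00000020625 was nearly level across the sorts, at 4.63 ± 1.40, 3.45 ± 2.09 and 3.53 ± 0.839 CPM in the same order. ENSRNOG00000024785 was low everywhere, with group means of 0.451 to 1.07 CPM in the fetal sorts. ENSRNOG00000060405 had 25, 8, 16 and 16 counts in LAP+ libraries, 3, 2, 6 and 4 in LAP+/OC2+, 1, 1, 0 and 0 in LAP+/OC2- and 0 in all adult libraries. On CPM without TMM, its LAP+ mean of 1.05 was at least 5.39-fold above adult cells, taking 3 counts per adult library (0.194 CPM) as the limit. The TMM-scaled LAP+ mean was lower, at 0.821 CPM, so this bound applies without TMM alone. The choice of the stretch had used this difference. No fold is given for LAP+/OC2+ cells. Their mean of 0.452 CPM without TMM lay near the limit of 0.335 to 0.381 CPM for 3 counts in their own libraries.

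Between the fetal sorts, tests were made on the whole table with edgeR's quasi-likelihood F test in 1 fit of the 16 libraries, with Benjamini-Hochberg adjustment over 13818 features and an adjusted p of 0.05. Of the 10 features, 9 passed the filter on low counts, and ENSRNOG00000050460 did not. ENSRNOG00000060405, ENSRNOG00000031792 and ENSRNOG00000024785 would not have passed on adult and LAP+/OC2- libraries alone, and passed through the sorts in which they are higher. Counts and medians over the 9 therefore describe the features that passed and support no statement about the cluster. Where 1 of these 3 was called, its result without the filter is also given. The 3 pairwise comparisons share their groups with each other, and their counts are given separately.

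LAP+/OC2- cells had lower levels of 4 neighbouring or nearby features than LAP+ cells. Few features differed between these sorts at all: 20 of 13818 (0.145%) were lower in LAP+/OC2- and 34 (0.246%) higher. The 4 are among the 20 lower ones, but ENSRNOG00000031792 and ENSRNOG00000060405 passed the filter through the sorts in which they are higher. Their number therefore supports no statement about the cluster. The counts over all features were 35 higher and 63 lower without LAP+ library 2 and 61 higher and 34 lower without LAP+ library 3, with the same number of the 9 called lower. ENSRNOG00000049096 fell by 5.58 on the log2 scale (SE 0.38), which is 48.0-fold, with an edgeR adjusted p of 3.37e-07. ENSRNOG00000049991 fell by 5.21 (SE 0.40, edgeR adjusted p = 1.17e-06) and ENSRNOG00000031792 by 4.96 (SE 0.50, edgeR adjusted p = 2.17e-05). Among all features tested in this comparison these ranked 2, 4 and 13 by p. ENSRNOG00000031792 fell by 5.75 without LAP+/OC2- library 5, its highest in that sort. ENSRNOG00000060405, on at most 1 count per LAP+/OC2- library, fell by 4.65 (SE 0.67, edgeR adjusted p = 0.003). Without the low-count filter ENSRNOG00000031792 fell by 4.97 (edgeR adjusted p = 3.54e-05) and ENSRNOG00000060405 by 4.67 (edgeR adjusted p = 0.00169). For these 4 features every LAP+/OC2- library lay below every LAP+ library, as for 1.32% of all features tested, and below every LAP+/OC2+ library too, as for 0.839%. The other 5 tested did not pass: ENSRNOG00000020563 had a log2 difference of -1.22 (SE 0.40, edgeR adjusted p = 0.313), ENSRNOG00000020647 of -0.82 (SE 0.75), ENSRNOG00000024785 of -0.73 and ENSRNOG00000020625 of -0.39. ENSRNOG00000053494 differed by 0.03 (SE 0.61, edgeR adjusted p = 1). The call for ENSRNOG00000060405 was lost when LAP+ libraries 1 and 4 were left out together (edgeR adjusted p = 0.0707), while the other 3 were called in all 15 alternatives. Without LAP+ library 4 the log2 difference of ENSRNOG00000020647 turned to 1.15.

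**Figure D3:**
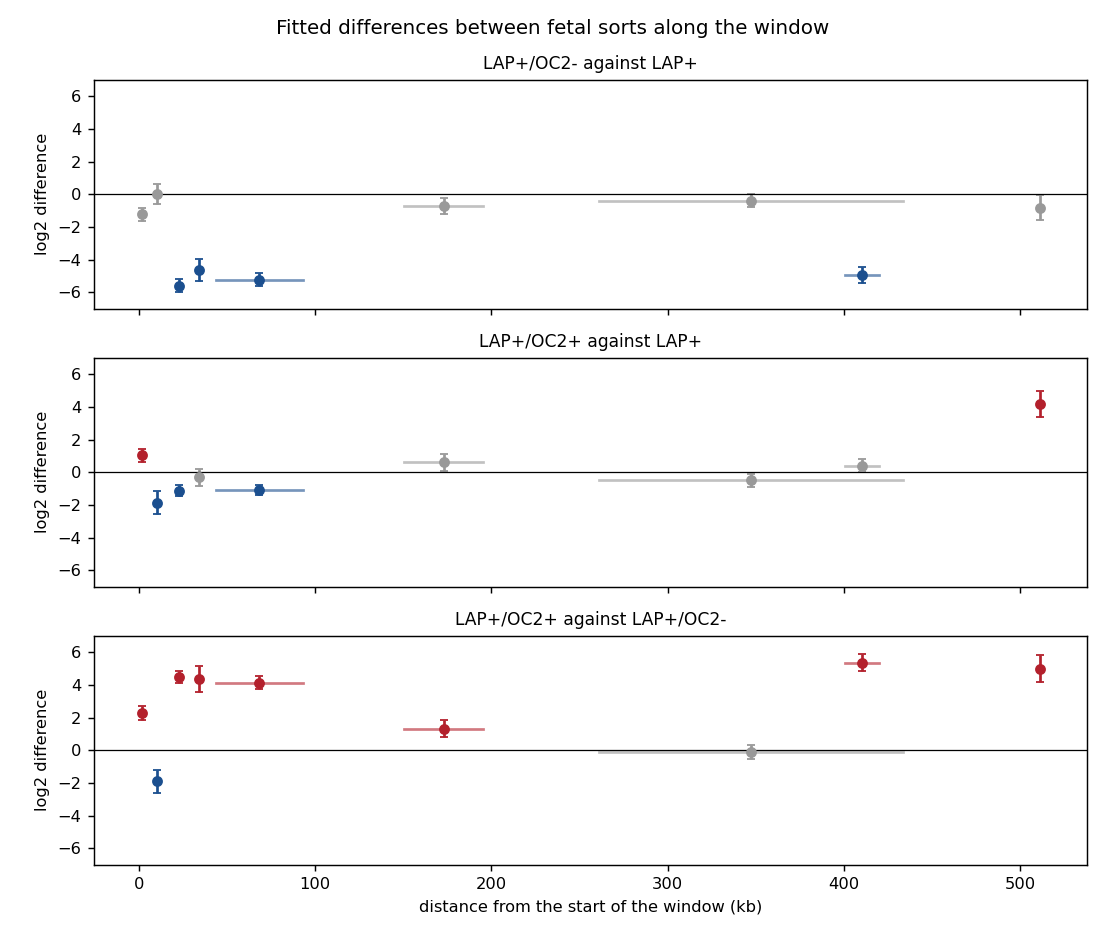
Fitted log2 differences between fetal sorts (points, with bars of 1 SE) for the 9 tested features against the distance of their middle from the start of the stretch in kb, with lines for their length, in red where called higher, blue where called lower and grey where not called. In LAP+/OC2- against LAP+, ENSRNOG00000049096 lies at -5.58 and its neighbour ENSRNOG00000053494 at 0.03, and in LAP+/OC2+ against LAP+ the last feature, ENSRNOG00000020647, lies at 4.17.

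LAP+/OC2+ cells had higher levels than LAP+/OC2- cells for several of the single features tested. Of the 9 features tested, 7 were higher and 1 lower, in a comparison in which 30.8% of all features tested were called higher and 36.6% lower. Among the 7 are ENSRNOG00000060405, ENSRNOG00000031792 and ENSRNOG00000024785, which passed the filter through the sorts in which they are higher. ENSRNOG00000031792 was higher by a log2 difference of 5.35 (SE 0.51, edgeR adjusted p = 1.07e-07), ENSRNOG00000020647 by 5.00 (SE 0.83, edgeR adjusted p = 8.81e-05) and ENSRNOG00000049096 by 4.47 (SE 0.37, edgeR adjusted p = 2.68e-08). Without LAP+/OC2- library 5 the difference of ENSRNOG00000031792 was 6.13. ENSRNOG00000060405 and ENSRNOG00000049991 were higher by 4.36 (SE 0.79) and 4.13 (SE 0.40), and ENSRNOG00000020563 by 2.27 (SE 0.41, edgeR adjusted p = 0.000137). These 6 did not overlap between the groups, as was so for 26.4% of all features tested. The median log2 difference was 4.13 over the 9 and -0.18 over all features tested. ENSRNOG00000053494 went the other way, with a log2 difference of -1.88 (SE 0.70, edgeR adjusted p = 0.0268), and ENSRNOG00000024785 was higher by 1.33 (SE 0.53, edgeR adjusted p = 0.0354). Without the low-count filter ENSRNOG00000031792 was higher by 5.20 (edgeR adjusted p = 1.96e-07) and ENSRNOG00000060405 by 4.23 (edgeR adjusted p = 0.000215). The calls of ENSRNOG00000053494 and ENSRNOG00000024785 were lost under several settings. With all libraries kept, ENSRNOG00000053494 had an adjusted p of 0.0762 with DESeq2 and 0.0532 in edgeR with the replicate block, and ENSRNOG00000024785 had 0.0835 in edgeR without the low-count filter. For ENSRNOG00000053494 the adjusted p was 0.0732, 0.0593 and 0.0646 without LAP+/OC2+ library 2, 3 or 4, and 0.0542 and 0.0646 without LAP+/OC2- library 3 or 4. Without LAP+/OC2+ library 1 its difference was -3.11. For ENSRNOG00000024785 the adjusted p was 0.253 and 0.0735 without LAP+/OC2+ library 3 or 4, and 0.0963 and 0.063 without LAP+/OC2- library 1 or 3. ENSRNOG00000020625 did not pass (log2 difference -0.10, SE 0.41, edgeR adjusted p = 0.834).

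Between LAP+/OC2+ and LAP+ cells single features were called in either direction. Of the 9, 2 (22.2%) were higher and 3 (33.3%) lower, in a comparison in which 32.0% of all features tested were called higher and 35.9% lower. Both shares of the 9 lie below those over all features, so they set the stretch apart in neither direction. ENSRNOG00000020647 was higher by a log2 difference of 4.17 (SE 0.79, edgeR adjusted p = 0.000293), and by 6.14 without LAP+ library 4. It was the only one of the 9 whose LAP+/OC2+ libraries all lay above all LAP+ libraries, as for 26.2% of all features tested. ENSRNOG00000049096 fell by 1.12 (SE 0.31, edgeR adjusted p = 0.00452) and ENSRNOG00000049991 by 1.08 (SE 0.33, edgeR adjusted p = 0.00782). Both of those calls were lost when LAP+ libraries 1 and 4 were left out together, at adjusted p of 0.097 and 0.0992. ENSRNOG00000053494 fell by 1.86 (SE 0.70, edgeR adjusted p = 0.0287), a call lost without LAP+/OC2+ library 2, 3 or 4 (adjusted p = 0.0759, 0.0612 and 0.0696) or LAP+ library 1 (0.0797), and with DESeq2 on all libraries (0.0774). Without LAP+/OC2+ library 1 it fell by 3.09. ENSRNOG00000020563 was higher by 1.05 (SE 0.40, edgeR adjusted p = 0.0274), a call lost without LAP+/OC2+ library 1, 2 or 3 (0.0514, 0.106 and 0.0673) or LAP+ library 2 or 4 (0.0824 and 0.0542), and on all libraries with the replicate block (0.0645) or without the low-count filter (0.0889). ENSRNOG00000031792 (log2 difference 0.39), ENSRNOG00000060405 (-0.30), ENSRNOG00000024785 (0.60) and ENSRNOG00000020625 (-0.49) did not pass, although ENSRNOG00000020625 passed without LAP+/OC2+ library 1 (-0.98, edgeR adjusted p = 0.0446). The high mitochondrial share of the LAP+/OC2+ libraries moves with both comparisons of that sort. With nuclear features alone, the fit called the same number of the 9 in both, 8 against LAP+/OC2- and 5 against LAP+. Of all 14323 features in that fit, 4550 were called higher and 5068 lower against LAP+/OC2-, and 4704 and 4969 against LAP+. That fit used the same nuclear counts, and the part that the mitochondrial share has in these differences was not tested.

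The LAP+ libraries differed among themselves in the same way for nearly the whole stretch. Library 1 was highest and library 2 lowest for 8 of the 9 features with counts, an order found in 17.6% of all features tested. The summed level was 232, 67.7, 137 and 150 CPM in libraries 1 to 4. The ratio of library 1 to library 2 ran from 2.01 for ENSRNOG00000024785 to 4.36 for ENSRNOG00000031792. ENSRNOG00000020647 was the exception, with 39, 19, 34 and 391 counts, and library 4 at 9.80 times the highest of the other 3. The feature that is highest in LAP+/OC2+ cells was thus raised in the single LAP+ library 4, in which none of the other 8 with counts was the highest. The labels give nothing that sets LAP+ libraries 1, 2 or 4 apart.

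**Figure D4:**
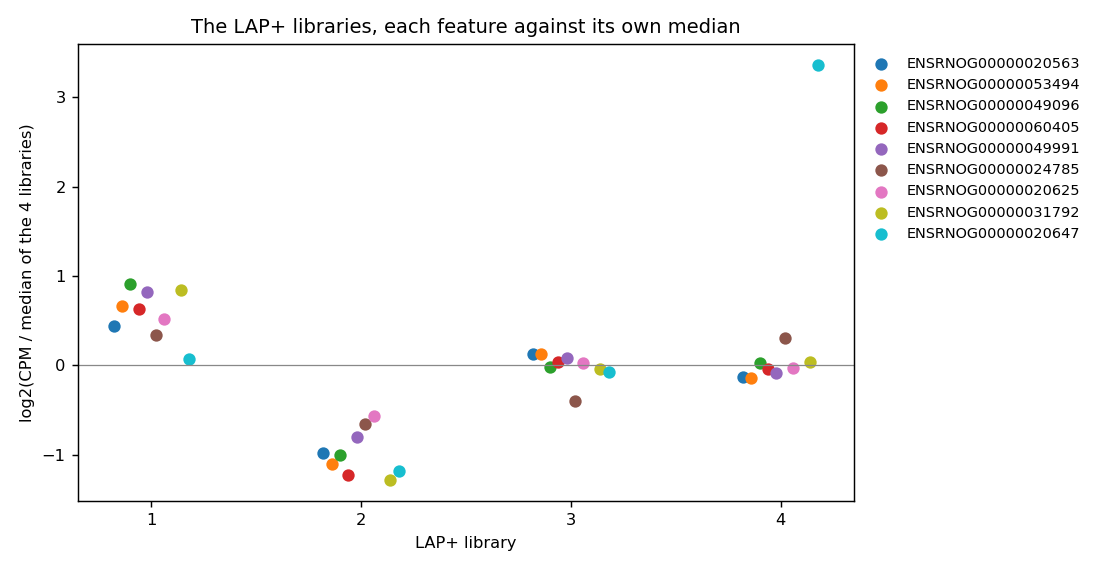
Log2 of the CPM of each of the 9 features with counts in LAP+ libraries 1 to 4, relative to the feature's own median over the 4 libraries. All 9 lie above 0 in library 1 and below 0 in library 2, and ENSRNOG00000020647 stands apart in library 4, at 19.6 CPM.

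After transplantation the 10 features were measured at low levels in both tissues, and none passed the test between colony and host. All 10 were tested on the 10 captured libraries with the animal as a block. Of all 18632 features tested, 4 (0.0215%) were called higher in the colony and 2 (0.0107%) lower, and these counts were 69 and 13 without animal 248 and 0 and 0 without animal 242 or 249. At an unadjusted p under 0.05 there were 4 of the 10 and 20.3% of all features tested. DESeq2 called 1 of the 10, and of all 18632 features 357 higher and 366 lower. Summed levels were 17.1 ± 4.75 CPM in host and 33.5 ± 10.7 in colony tissue (SD, n = 5 each). Per kilobase of exon, group means ran from 0.629 to 1.81 CPM per kb in host tissue and were similarly close together in colony tissue, where ENSRNOG00000060405 was highest at 3.32 ± 2.11.

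The fitted log2 difference was positive for all 10, with a median of 1.06 against 0.05 over all features tested. ENSRNOG00000024785 and ENSRNOG00000020625 alone would have passed the low-count filter on host libraries, and the others needed colony counts to pass. Counts and medians over the 10 therefore describe features that passed and support no statement about the cluster. The smallest p was that of ENSRNOG00000020625. In host tissue it had 1.38, 1.78, 4.92, 1.99 and 3.20 CPM in animals 242, 243, 246, 248 and 249. In colony tissue it had 6.29, 5.00, 5.98, 7.11 and 9.31 CPM in the same order. Colony lay above host in every animal, least in animal 246, with a log2 difference of 1.44 (SE 0.34, edgeR adjusted p = 0.0773, unadjusted p = 0.000362). ENSRNOG00000060405 (1.78, SE 0.66, edgeR adjusted p = 0.159) and ENSRNOG00000049991 (1.29, SE 0.45, edgeR adjusted p = 0.144) were also higher in the colony in all 5 animals. That made 3 of the 10, against 8.87% of all features tested. The remaining 7 had log2 differences from 0.55 for ENSRNOG00000020647 to 1.58 for ENSRNOG00000053494, which was 0.99 without animal 248. In the host library of that animal 3 of the 10 had a count of 0, ENSRNOG00000020563, ENSRNOG00000053494 and ENSRNOG00000060405, which allows up to 0.258 CPM. The 3 leading features of the fetal sorts before transplantation did not stand out among the 10 here, with 0.55 (ENSRNOG00000020647), 0.82 (ENSRNOG00000049096) and 1.58 (ENSRNOG00000053494).

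By animal, the colony was higher for 10, 10, 4, 8 and 9 of the 10 features in animals 242, 243, 246, 248 and 249, against 53.2%, 52.0%, 49.7%, 53.5% and 54.4% of all features tested. In at least 4 of the 5 animals it was higher for 8 of the 10, against 32.1%. Most of the 10 passed the low-count filter only with their colony counts, so these counts by animal support no statement about the cluster. The median difference of log2(CPM + 1) over the 10 was 0.90, 0.53, -0.12, 1.08 and 1.03 in that order. Animal 246 alone had a median below 0 over the 10, as it alone had over all features tested (-0.0024). Without it, 2 of the 10 were called higher, ENSRNOG00000020625 (log2 difference 1.71, edgeR adjusted p = 0.00599) and ENSRNOG00000049991 (1.52, edgeR adjusted p = 0.0363), while the count over all features rose to 856 higher and 1202 lower. With the low-count filter set on the block design, ENSRNOG00000020625 had an edgeR adjusted p of 0.0354.

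Features without a count in any of the 16 libraries before transplantation leaned the same way. There were 9335 such features, and 1106 of them were tested in captured tissue. Their median log2 difference was 0.89, and 91.9% were positive, against 0.02 and 52.1% for the other features tested. Of the 7907 tested features with a mean of 1 to 6 CPM after transplantation, the range in which the 10 lie (1.34 to 4.99 CPM), 81.5% were positive, with a median of 0.56. ENSRNOG00000050460, with 0 counts in all 16 libraries before, had between 5 and 29 counts in every captured library and a log2 difference of 0.56 (edgeR adjusted p = 0.624). The part that reads of this kind have in the levels of the other 9 was not tested.

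**Figure D5:**
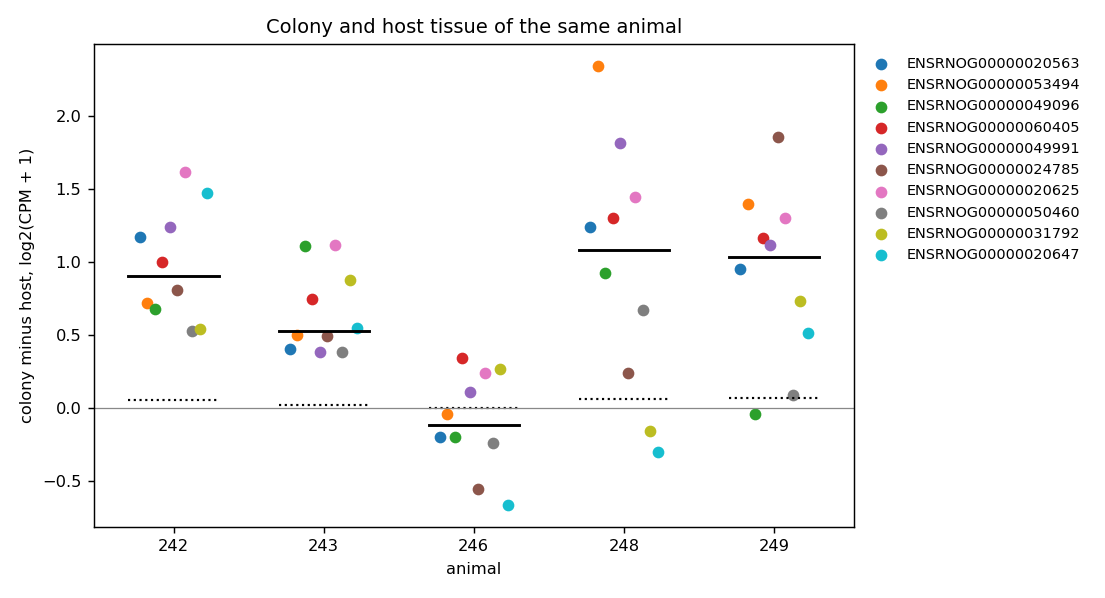
Colony minus host difference of log2(CPM + 1) for the 10 features (points) in each of the 5 animals, with a solid line at the median of the 10 and a dotted line at the median of all features tested. ENSRNOG00000020625, ENSRNOG00000060405 and ENSRNOG00000049991 lie above 0 in all 5 animals, and 6 of the 10 lie below 0 in animal 246.

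Over the 16 libraries before transplantation, 12454 other features with a mean of at least 1 CPM were compared with the mean log2(CPM + 1) of the 9 tested features. The 2 most alike were ENSRNOG00000027260 on chromosome 11 (64861768 to 64868108, Pearson r = 0.937) and ENSRNOG00000010319 on the same chromosome as the cluster (57221292 to 57277811, r = 0.933). The r values describe libraries that fall into groups by sort, share kit and scaling, and carry no test. ENSRNOG00000010319 stood at 9.26 ± 3.24 CPM for adult, 50.7 ± 29.8 for LAP+, 103 ± 21.2 for LAP+/OC2+ and 23.7 ± 1.96 for LAP+/OC2-. ENSRNOG00000027260 varied less, from 9.83 ± 0.932 CPM in adult to 17.0 ± 1.94 in LAP+/OC2+ cells. Both were lowest in adult and highest in LAP+/OC2+ cells, the order of the summed level of the cluster on the TMM scale. Adult libraries were among the 16, so a low adult level in the most alike features follows in part from the choice of the stretch.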

How the data were processed

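Deposited per library were raw counts of reads for each feature, per the file headers, beside exon coordinates, strand and exon length. The submitters' processing notes name bcl2fastq (2.17), Trimmomatic (0.36), STAR (2.5.2b) and featureCounts from Subread (1.5.2). The sources used here do not give the build, annotation or strand setting, so overlapping genes on opposite strands may share reads. Per the labels' protocols, cell pellets went through the NEBNext Ultra kit and captured tissue through a stranded total RNA kit for small inputs.

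Testing used edgeR 4.0.16 under R 4.3.3, with TMM scaling, a low-count filter on the groups (filterByExpr, minimum count 10), robust quasi-likelihood F tests and Benjamini-Hochberg adjustment over all features tested, at an adjusted p of 0.05. The 16 libraries before transplantation entered 1 fit and the 10 after it another, with the animal as a block because host and colony come from the same animals. Within animals, deviations of host and colony libraries from their group means correlated between -0.24 and 0.48. Animal differences use log2(CPM + 1), and lower bounds use 3 counts per library without TMM. None of the 44 replicate pairs agreed within sampling noise. Cell type marker lists could not be tested, since no identifier was paired with a symbol. The 10 features, the lists, the tests and the rule for named features (the 10, the rows at the choice's edge and the 2 most alike features) were chosen with earlier results of these data known. Alternatives were DESeq2 1.42.0, RLE size factors, nuclear features alone, looser and stricter filters, fits with or without a block, and leaving out libraries or animals.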

Additional observations from a re-analysis of the deposited data

Results flagged for a closer look

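The highest or lowest library was set against the rest in 55 groups of 4 or 5 libraries of a feature with unequal values, and the highest or lowest animal in the colony minus host differences of the 10 features. Of these 65 comparisons 5 had a library far from the others. The rule flags about 1 in 20 groups of normally distributed values. Low counts need not follow that rate, since a single nonzero library among zeros is always flagged, so the 5 are not set against it. ENSRNOG00000020647 stood at 19.6 CPM in LAP+ library 4, against 2.00 CPM in the next. ENSRNOG00000031792 stood at 1.19 CPM in LAP+/OC2- library 5, against 0.328 in the next. ENSRNOG00000031792 was also high in the host library of animal 248, at 4.77 CPM against 1.59. In that same host library ENSRNOG00000053494 had a count of 0 (0.0 CPM), as had ENSRNOG00000020563 and ENSRNOG00000060405, which allows up to 0.258 CPM, and for ENSRNOG00000053494 the next lowest host library had 1.07 CPM. ENSRNOG00000024785 had 0.0659 CPM in adult library 3, below the limit that a count of 0 allows, and no count in the other adult libraries.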

How the results depend on the processing

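Of 502 values of single features under other settings, 456 kept their direction and their side of the threshold, 28 lost the call, 6 gained it and 12 changed sign. The sign changes concern values that had not passed. ENSRNOG00000020625 in LAP+/OC2+ against LAP+/OC2- was 0.029 with RLE size factors, 0.038 with DESeq2 and -0.59 to 0.10 with libraries left out in turn. RLE also moved the median of all features in that comparison from -0.18 to -0.05. ENSRNOG00000053494 in LAP+/OC2- against LAP+ was -0.10 with a replicate block and -0.21 to 0.33 with libraries left out, and ENSRNOG00000020647 was -1.39 to 1.15. Without LAP+ libraries 1 and 4 together, an alternative chosen after seeing the data, ENSRNOG00000020647 was at 1.39, and ENSRNOG00000060405 in LAP+/OC2+ against LAP+ was at 0.13. In the latter comparison 2 of the features were called without both libraries, and 3 to 5 with libraries left out in turn. Over all 14038 to 14121 features tested with libraries left out in turn, 4112 to 4415 were called higher and 4690 to 5052 lower. In the main fit of that comparison 32.0% of all features tested were called higher and 35.9% lower. In colony against host, 1 was called without a low-count filter, with DESeq2 and with the filter on the block design (chosen after seeing the data), and 0 to 2 with animals left out.

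Counts over all features also moved. LAP+/OC2- against LAP+ gave 105 higher and 103 lower with DESeq2. Colony against host gave 325 and 426 without a filter, 357 and 366 with DESeq2, 126 and 136 with the filter on the block design, and 0 and 0 without the block. The cause was not tested. Same-numbered libraries before transplantation had correlations of deviations from -0.51 to 0.21, so the numbers were not taken to pair them. With the number as a replicate block, 7, 4 and 4 of the 9 were called in LAP+/OC2+ against LAP+/OC2-, LAP+/OC2+ against LAP+ and LAP+/OC2- against LAP+. Of all 13818 features in that fit, 3781 were called higher and 4691 lower in the first comparison. In LAP+/OC2+ against LAP+ it was 4189 and 4780, and in LAP+/OC2- against LAP+ 46 and 17. A stricter filter left 7 of the 9 to test before transplantation and 2 of the 10 after it.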
